A study of Mus musculus with 2 samples.

Results

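The list of p53 binding peaks in mouse embryonic kidney held 295 peaks that were both strong and broad, out of 7893 in all (3.74%). A peak was counted as strong when its deposited score was 300 or more and as broad when its width was 1000 bp or more. They were thus chosen by their own scores and widths, which are given as a description only. The study made 1 chromatin immunoprecipitation library with an antibody against p53 and 1 input library from chromatin that was not immunoprecipitated. The kidneys of both were from wild-type C57BL embryos at stage E15.5. The peaks were called by the authors on the p53 library, and peak-level data of the input were not used here. With 1 p53 library there was no replicate, so no difference below could be tested over samples. A peak list holds no expression values, so the tissue label could not be checked against kidney markers.

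p53 is a transcription factor that binds DNA as a tetramer at a two-part recognition sequence and activates genes of cell cycle arrest, apoptosis, DNA repair and metabolism. In the embryonic kidney, where progenitors are still forming nephrons, it is known for a part in keeping progenitors and in their differentiation. A binding peak marks a stretch where sequenced fragments pile up. A site bound at a single point usually gives a narrow stretch, whereas several sites close together, or signal spread along open chromatin, can give a wide one. Over all peaks of this list width also rose with score (Spearman's rho 0.56), and what made a peak wide was not tested. No genome or gene annotation in the build of the peaks, mm9, was used here, so neither the genes at these peaks nor their sequences are given.

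The strong and broad peaks were a small, bright corner of the list. They made up 76.8% of the 384 strong peaks but 10.3% of the 2874 broad ones, and they covered 520 kb, or 6.92% of the length of all peaks. Their scores ran from 300.06 to 3100, with a median of 391 and quartiles of 341 and 560. Their widths ran from 1000 to 6030 bp, with a median of 1647 bp and quartiles of 1282 and 2073 bp. Most stood close to the score threshold: 157 of the 295 (53.2%) scored below 400, while 33 (11.2%) scored 1000 or more. Of the 89 strong and sharp peaks (under 1000 bp), 11 scored that high, a similar share, and their median score was 412. Within the 295, score and width were almost unrelated (Spearman's rho 0.10 across 295 peaks of 1 library, given as a description), next to 0.56 over all peaks, where the range of both is wider. The other peaks fell into 3 classes used for comparison below: 89 strong and sharp peaks, 2579 broad peaks of low score, and 4930 that were neither strong nor broad.

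**Figure D1:**
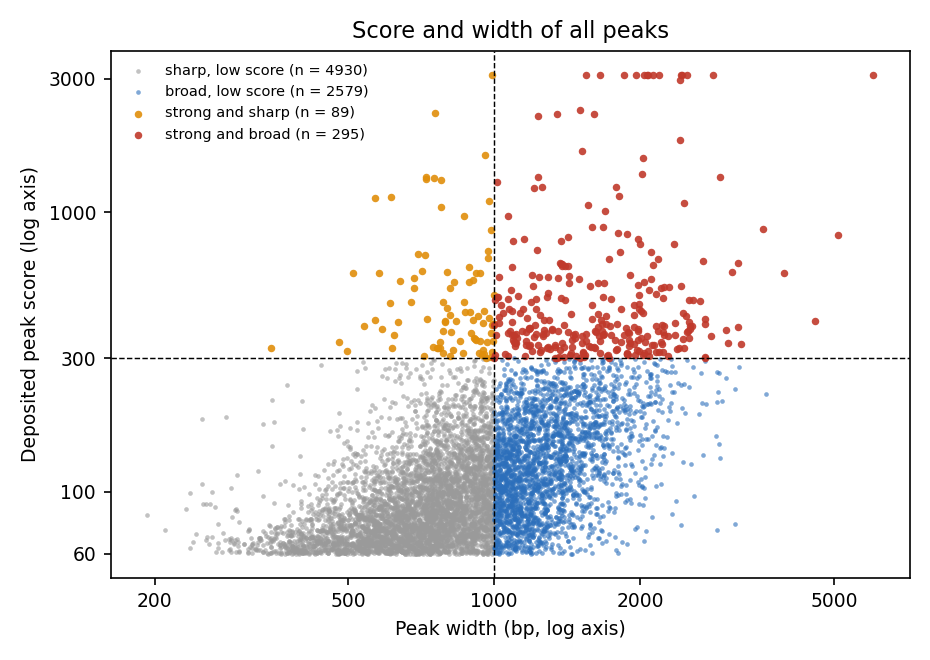
Deposited score against width in bp for all 7893 peaks, both on log axes, 1 point per peak, with dashed lines at a score of 300 and a width of 1000 bp. The 295 strong and broad peaks fill the upper right, with 14 of them on the line of the highest score, 3100.

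The thresholds cut through a continuous spread of values. Just inside the score threshold, the peak at 134908614 to 134910115 of chromosome 4 scored 300.06. The next, on chromosome 10 (79861221 to 79862944), scored 300.82, and one on chromosome 2 (131087553 to 131088898) scored 301.00. Just outside it were broad peaks at 299.82 (chromosome 9, 40608648 to 40609746), 299.25 (chromosome 8, 11557748 to 11559068) and 298.93 (chromosome 5, 138611772 to 138613723). Just inside the width threshold lay peaks of 1000 bp (chromosome 1, 120355246 to 120356245) and 1001 bp (chromosome 10, 80654895 to 80655895). A pair of 1006 bp followed, at 62188715 to 62189720 of chromosome 9 and at 28467853 to 28468858 of chromosome 17. Just outside it were strong peaks of 998 bp (chromosome 19, 10969395 to 10970392), 997 bp (chromosome 7, 29123342 to 29124338) and 994 bp (chromosome 1, 158648541 to 158649534). These positions, and all others given here, are 1-based and in mm9.

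All 19 autosomes carried strong and broad peaks, and the X chromosome carried none. Chromosome 11 held the most, 39 peaks or 13.2% of the 295 (95% exact interval 9.57 to 17.6), whereas it held 8.65% of the other peaks (8.02 to 9.30). The difference was 4.57 percentage points, with an interval of 0.87 to 9.02. Broad peaks of low score had a share of 10.4% there, inside the interval of the strong and broad ones, and strong and sharp peaks had 7.87%. Chromosome 7 held 27, chromosome 17 held 21 and chromosome 1 held 20, which together with chromosome 11 were the only chromosomes with 20 or more. The fewest autosomal ones were 7 each on chromosomes 16 and 19 and 8 on chromosome 18. Here and below, intervals are at the 95% level, cover counting of peaks in this library only and take each peak as an independent count, although neighbours are not.

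Set against the peaks of the same chromosome, the share of strong and broad peaks on autosomes ranged from 2.11 per 100 peaks on chromosome 9 (interval 0.97 to 3.96) to 6.05 on chromosome 12 (3.56 to 9.51), next to 3.74 over the whole list. Chromosome 12 thus had few peaks, 281, but 17 of them were strong and broad. On chromosome 11 the value was 5.60 (4.01 to 7.58), and on chromosome 17 it was 5.17 (3.23 to 7.80). Of the 20 intervals, 1 lay above the value of the whole list, that of chromosome 11, and 1 lay below it, that of the X chromosome. These intervals are not adjusted for the number of chromosomes, and neighbours in this order overlapped. Per 100 protein-coding genes, counted per chromosome in RefSeq's GRCm38.p6 annotation, the autosomes together held 1.43 strong and broad peaks. Chromosome 12 held 2.50 and chromosome 11 held 2.42, the 2 highest values, and chromosome 9 held 0.749 and chromosome 2 held 0.898, the 2 lowest on autosomes.

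On the X chromosome 0 of 122 peaks were strong and broad, next to 3.80% on the autosomes. The limit of 3 counts allows a share of up to 2.46% of X peaks, and the exact two-sided interval, plotted for each chromosome, ends at 2.98%. Among the 295, 0 on X allows a share of up to 1.02% by the limit of 3 counts. Of the broad peaks of low score, 0.427% lay on X. The X chromosome held 11 broad peaks (9.02% of its peaks, next to 32.6 to 44.3% on the autosomes), the highest of which scored 257. Its 1 strong peak was 779 bp wide. Both breadth and strength were therefore rare there.

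**Figure D2:**
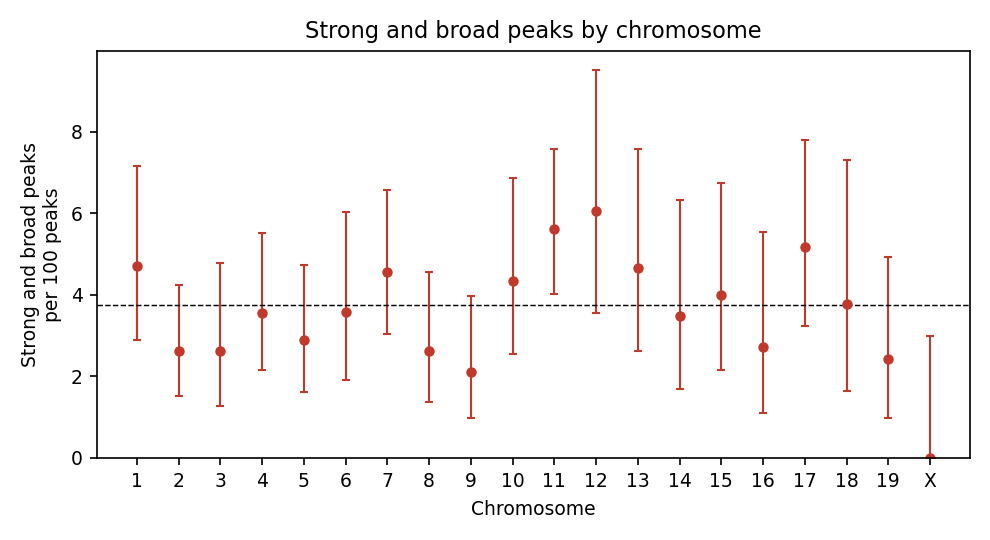
Strong and broad peaks per 100 peaks of each chromosome (points) with 95% exact binomial intervals (bars), and a dashed line at 3.74, the value over the whole list. Chromosomes 12, 11 and 17 stand highest at 6.05, 5.60 and 5.17, and the X chromosome is at 0.

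The nearest neighbour of a strong and broad peak was closer than that of the other peaks. Of the 295, 93 (31.5%, interval 26.3 to 37.2) had another peak within 10 kb, measured from edge to edge, next to 21.2% of all 7893 peaks and 20.8% of the 7598 others (19.9 to 21.7). The difference from the others was 10.8 percentage points (5.41 to 16.5). The median gap to the nearest peak was 26.5 kb (20.5 to 34.4), next to 43.1 kb (41.5 to 44.8) for the others. Edges were used because a distance between midpoints contains the widths that chose the peaks. Gaps between edges are not free of width either, since at a given midpoint distance a wider peak has a smaller gap. Between midpoints the shares within 10 kb were 27.8 and 19.5%, a smaller difference of 8.32 percentage points (3.20 to 13.9).

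Neither strength nor breadth on its own went with so high a share. It was 18.0% among strong and sharp peaks (10.6 to 27.5), 23.0% among broad peaks of low score (21.4 to 24.7) and 19.6% among the rest (18.5 to 20.8). The strong and broad peaks exceeded these by 13.5 (2.63 to 22.8), 8.49 (2.97 to 14.4) and 11.9 (6.51 to 17.6) percentage points. For the median gap the picture was the same for the broad peaks of low score, whose median was 37.8 kb, a difference of -11.4 kb (-18.1 to -2.78). For the strong and sharp peaks it was not: their median of 35.7 kb differed by -9.25 kb, and the interval of -26.3 to 3.23 kb includes 0.

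Each share within a distance counts all peaks with a neighbour up to that distance, so it includes the shorter ones. The excess over the others built up within 10 kb, where it was 10.8 percentage points. It stayed similar up to 50 kb and was smaller within 100 kb. Within 1 kb, a gap can split a single enriched stretch into 2 peaks. There 29 strong and broad peaks (9.83%, interval 6.68 to 13.8) had a neighbour, and the 7.62% of the others lies inside that interval. Within 5 kb the shares were 20.3 and 13.9%, within 20 kb 43.1 and 31.9%, and within 50 kb 65.1 and 54.1%. Within 100 kb they were 79.0% (73.9 to 83.5) and 72.3%. At that distance strong and sharp peaks (77.5%) and broad peaks of low score (75.9%) lay inside the interval of the strong and broad ones. Beyond 500 kb from any other peak lay 12 strong and broad peaks (4.07%) and 4.82% of the others, so lone peaks had a similar share in both.

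**Figure D3:**
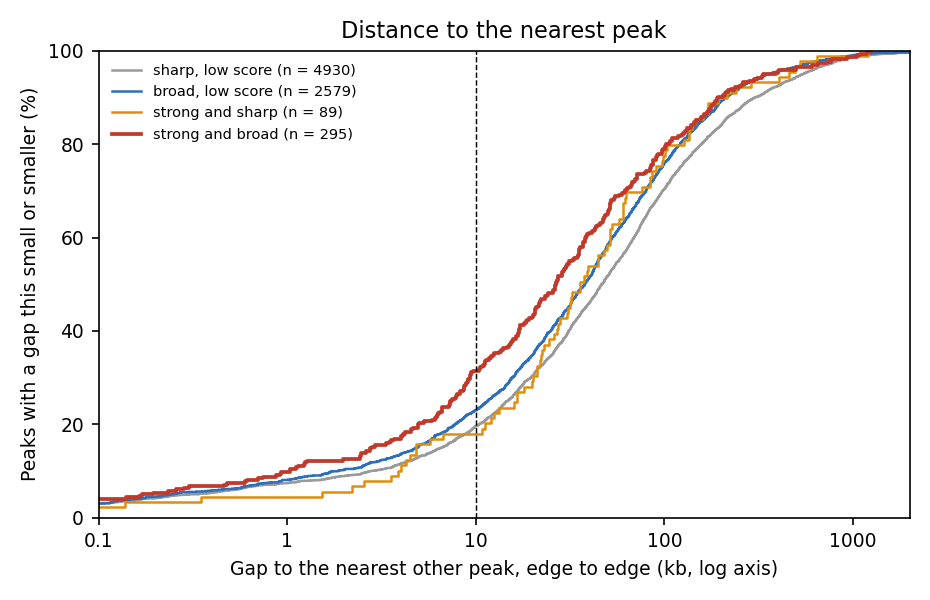
Share of each class of peaks (in %) whose nearest other peak lies within the distance on the x axis (edge to edge in kb, log axis from 0.1 kb), with a dashed line at 10 kb. At 10 kb the strong and broad peaks stand at 31.5%, above 23.0, 19.6 and 18.0% in the other 3 classes, and the curves come together beyond 100 kb.

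Most neighbours were peaks of low score. The nearest peak to a strong and broad one had a median score of 98.5, next to 97.0 for the nearest peak to the others. Of the 295 nearest peaks, 169 (57.3%) were neither strong nor broad and 106 (35.9%) were broad with a low score, next to 61.5 and 33.6% for the others. Strong and broad themselves were 18 (6.10%), next to 3.84%, and strong and sharp were 2 (0.678%), next to 1.07%. The 93 neighbours within 10 kb scored 109 at the median, next to 99.5 for neighbours that close to other peaks, and their median widths were 1022 and 910.5 bp. Among these 93, 42 (45.2%) were broad with a low score, next to 35.2%, and 8 (8.60%) were strong and broad, next to 5.39%. A neighbour scored higher than the strong and broad peak in 8 of 295 cases, which the choice of high scores favours. A second strong peak within 100 kb, sharp or broad, was found for 47 of the 295 (15.9%, interval 11.9 to 20.6), next to 11.2% of all peaks. The share was 6.74% (2.51 to 14.1) for strong and sharp peaks and 13.3% (12.0 to 14.7) for broad peaks of low score. The interval of the strong and broad peaks overlapped both, but overlap does not show that shares are alike, and no interval of these differences is given. Within 1000 kb the share was 52.5% (46.7 to 58.4) for strong and broad peaks. There it was 37.1% (27.1 to 48.0) for strong and sharp peaks and 47.4% (45.5 to 49.4) for broad peaks of low score.

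The region around strong and broad peaks was also richer in peaks. Other peaks were counted from 10 to 500 kb on either side, from midpoint to midpoint. This leaves out peaks with a midpoint within 10 kb, but not every neighbour within 10 kb from edge to edge. Strong and broad peaks had on average 9.90 other peaks (SD 7.93, n = 295 peaks of 1 library), next to 7.83 for the others (SD 6.89, n = 7598). The difference was 2.07 peaks (interval 1.16 to 2.99). The medians were 8 and 6. Strong and sharp peaks had 7.34 (interval 5.95 to 8.73, n = 89), the peaks that were neither strong nor broad 7.38 and broad peaks of low score 8.71. The interval of the strong and sharp peaks includes both of the other values, so their order among these 3 classes cannot be told. The strong and broad peaks exceeded the broad peaks of low score by 1.19 (0.25 to 2.14) and the strong and sharp ones by 2.56 (0.91 to 4.22).

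The density around strong and broad peaks fell steadily with distance, as it did around both classes of low score. Within 10 kb of a midpoint there were 19.3 other peaks per Mb around strong and broad peaks and 12.3 around the others, a ratio of 1.57. The ratio was 1.47 from 10 to 50 kb, 1.35 from 50 to 100 kb, 1.29 from 100 to 250 kb, 1.18 from 250 to 500 kb and 1.18 from 500 to 1000 kb. It was 1.08 from 1000 to 2000 kb and 1.09 from 2000 to 5000 kb, where the densities were 4.22 and 3.88 per Mb. Broad peaks of low score also stood above the others in every ring, by a ratio of 1.17 within 10 kb and 1.02 from 2000 to 5000 kb. From 10 to 50 kb, strong and sharp peaks and broad peaks of low score both had 11.8 per Mb, next to 9.55 for the rest. From 100 to 250 kb these values were 7.34, 9.04 and 7.80.

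**Figure D4:**
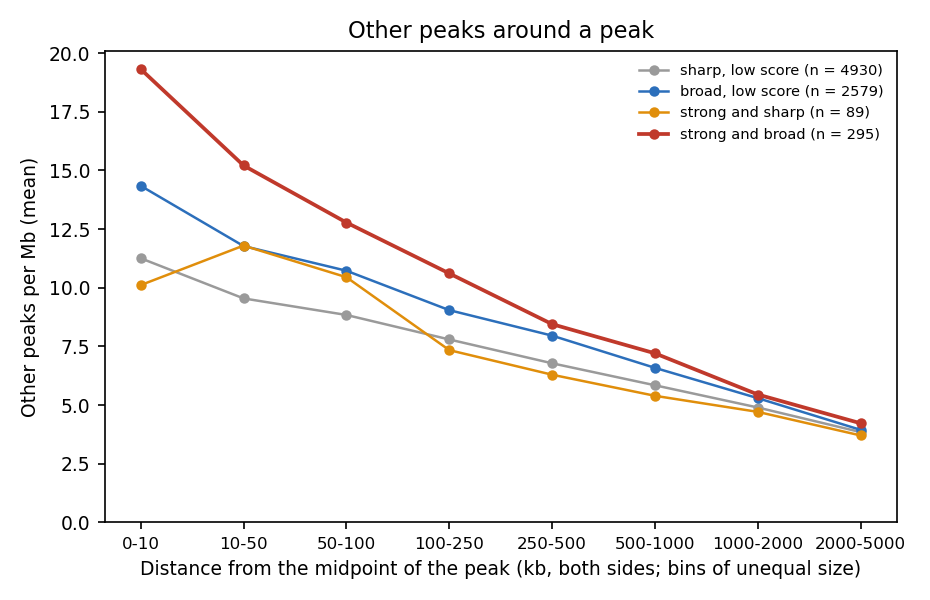
Mean number of other peaks per Mb in rings of distance (in kb, both sides) around the midpoint of a peak, for the 4 classes. Strong and broad peaks stand highest in every ring, from 19.3 per Mb within 10 kb to 4.22 per Mb at 2000 to 5000 kb.

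The excess held within most chromosomes but not all. Strong and broad peaks had the higher mean number of peaks 10 to 500 kb away on 13 of 19 chromosomes and the lower on 6. They had the higher share with a neighbour within 10 kb on 14 and the lower on 5. On chromosome 13 they had 15.9 peaks around them next to 6.39 for the others, the widest gap of any chromosome, and 60% (n = 15) had a neighbour within 10 kb next to 24.4%. Of these 15, however, 7 lay in a single run of 234 kb, described below, so they are not separate places. Those 7 had 26 to 30 other peaks around each, whereas the rest on chromosome 13 had 0 to 21. On chromosome 14 (n = 10) and chromosome 18 (n = 8) 0 had a neighbour that close, next to 13.4 and 20.6% of the others there. Weighting the other peaks to the chromosomes on which the strong and broad ones lie raised their mean to 8.19 and their share to 21.5%, below 9.90 and 31.5%. Leaving out chromosome 13 gave the smallest difference in surrounding peaks, 1.69, and leaving out chromosome 11 the smallest in the share within 10 kb, 9.11 percentage points.

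A larger share of these peaks than of all peaks lay in very crowded regions. Of the 295, 36 (12.2%) had 20 or more other peaks from 10 to 500 kb away, next to 7.51% of all peaks. They lay on 9 chromosomes, with 11 on chromosome 11, 8 on chromosome 13 and 6 on chromosome 10. The 36 were not all separate places, since 7 of those on chromosome 13 lay in a single run of 234 kb, described below. At the other end, 12 of the 295 (4.07%) had 0 peaks in that window, next to 5.30% of all peaks. The most crowded, on chromosome 11 (69571373 to 69573351), measured 1979 bp, scored 549 and had 41 other peaks around it. The next 5 lay within 1120 kb of each other on chromosome 10, starting at 79610346, 80654895, 79861221, 80084268 and 80728968. They had 34, 34, 33, 32 and 32 other peaks around them and scores of 397, 301, 301, 719 and 496.

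Along the chromosomes the strong and broad peaks followed the rest of the list. In the last part of 3 equal parts of the span from first to last peak lay 131 of them (44.4%, interval 38.6 to 50.3), next to 41.1% of the others. In the first lay 73 (24.7%, interval 19.9 to 30.1), next to 28.8%.

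Few of the 295 lay beside one another, yet some formed runs. The median gap between consecutive ones was 3.23 Mb (quartiles 0.564 and 9.08 Mb), and the widest was 55.5 Mb. With runs joined across gaps of up to 1 Mb, 155 of the 295 (52.5%) stood alone, 32 runs held 2, and 19 runs held 3 or more, 76 peaks in all. The fullest run was on chromosome 13, where 7 strong and broad peaks lay among 25 peaks within 234 kb (23621826 to 23856043). In order along the chromosome they scored 650, 835, 484, 514, 437, 1080 and 339. The first to the fourth and the sixth and the last had a neighbouring peak within 4 kb, whereas the fifth (23712701 to 23715143) was 35.1 kb from its nearest.

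A run of 6 spanned 1947 kb on chromosome 11 (68886215 to 70833546) among 58 peaks, with scores from 343 to 3100. Another 4 runs held 5 each. That on chromosome 5 (134659643 to 135663667) counted only 13 peaks in all, and that on chromosome 7 (133646667 to 135605868) counted 45. Chromosome 8 had one of 27 peaks (86422675 to 87510776) and chromosome 10 one of 39 (79610346 to 80729978). The run of 4 on chromosome 4 (131825481 to 133370706) had the highest median score, 1393, since 2 of its peaks scored 1813 and 2202.

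Within 10 kb of each other lay 5 pairs of strong and broad peaks. The closest, on chromosome 17, was separated by 47 bp: a peak of 1244 bp (34255751 to 34256994) scoring 317 and one of 3174 bp (34257042 to 34260215) scoring 660. On chromosome 11 a peak scoring 883 (87235752 to 87237338) lay 2.44 kb from one scoring 788 (87239779 to 87240869). Also on chromosome 11, peaks at 106640179 to 106641811 and 106648392 to 106650840 were 6.58 kb apart, with scores of 431 and 353. On chromosome 8, peaks at 129117607 to 129119686 and 129126942 to 129127963 were 7.26 kb apart and scored 305 and 420. On chromosome 13 the third and the fourth peak of the run described above were 7.66 kb apart.

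The highest score in the list, 3100, was reached by 15 peaks, of which 14 were broad enough to belong here. Because the score stops at this value, they cannot be ranked among themselves. They lay on 9 chromosomes and were 1547 to 6030 bp wide, with a median of 2097 bp. Their surroundings ranged from crowded to empty. The gap to the nearest peak ran from 40 bp to 1085 kb with a median of 27.6 kb, and the number of other peaks 10 to 500 kb away from 0 to 28 with a median of 7. In 4 of 14 another peak lay within 10 kb, a share of 28.6% (interval 8.39 to 58.1), an interval that includes the 31.5% of the whole class.

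The crowded ones were on chromosomes 11, 19, 17, 2 and 15. The peak on chromosome 11 (69804159 to 69805705) had 28 other peaks around it and one scoring 257 at 2.76 kb. That on chromosome 19 (7015204 to 7017324) had 18, with one scoring 243 at 7.73 kb. On chromosome 17 (27759643 to 27761289) there were 15 around it, and a peak of 1006 bp scoring 109 ended 40 bp before it. On chromosome 2 (32306352 to 32308424) there were also 15, the nearest at 26.4 kb, and on chromosome 15 (79375925 to 79377983) there were 14, the nearest at 28.7 kb.

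In the middle range, the second peak at the highest score on chromosome 11 (106076803 to 106078756) had 11 others around it. The peak on chromosome 6 (51418444 to 51421257), the second widest of the 14 at 2814 bp, had 8, one of them 7.92 kb away. The one on chromosome 14 (71165407 to 71167836) had 6, another of chromosome 2 (37558236 to 37560084) had 5, and another of chromosome 19 (40662247 to 40664278) had 4. The nearest peak to the last of these scored 60.03, almost the lowest value of the list, 60.01. The peak on chromosome 9 (25059053 to 25061233) had 1.

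The other 3 stood alone, with 0 other peaks from 10 to 500 kb away. On chromosome 1 (46909190 to 46911685, 2496 bp) the nearest peak was 926 kb away and scored 79.3. On chromosome 2 (49306531 to 49308958, 2428 bp) it was 501 kb away and scored 85.0. On chromosome 17 (39979847 to 39985876, 6030 bp) it was 1085 kb away and scored 203. Whether this last peak lies in sequence present in several copies was not tested, which limits what its score and width mean. Without it, the differences from the others were 10.9 percentage points within 10 kb and 2.11 surrounding peaks.

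**Figure D5:**
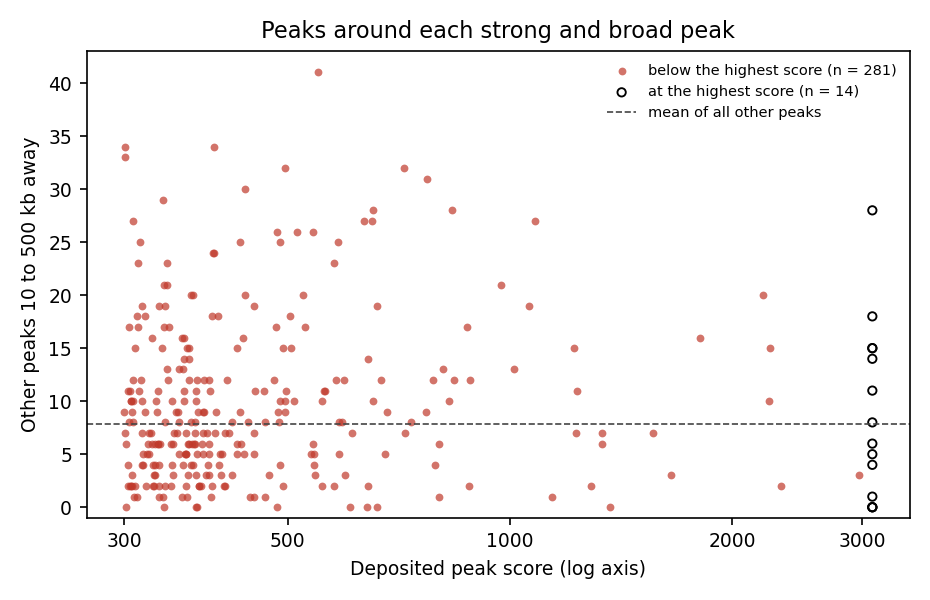
Number of other peaks 10 to 500 kb away against deposited score (log axis) for each of the 295 strong and broad peaks, with open circles for the 14 at the highest score and a dashed line at 7.83, the mean of all other peaks. The circles spread from 0 to 28, and the fullest surroundings, 41 peaks, belong to a peak scoring 549.

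Below the highest score, 19 strong and broad peaks scored from 1000 upward. The first was on chromosome 7 (118225346 to 118227762) at 2978, with 3 other peaks around it and the nearest at 37.8 kb. It was followed by one on chromosome 12 (105989352 to 105990856) at 2328, with 2 around it and the nearest at 144 kb. Those on chromosome 17 (26121956 to 26123301) at 2251, chromosome 2 (127095229 to 127096834) at 2249 and chromosome 4 (132894548 to 132895780) at 2202 had 15, 10 and 20 around them. A peak on chromosome 11 (17058746 to 17060758) at 1366 stood alone, 650 kb from the nearest.

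Among the highest-scoring strong and broad peaks of the other chromosomes, surroundings also varied. Chromosome 18 reached 1564 (35113040 to 35115060, 7 peaks around it), chromosome 16 reached 1334 (38087682 to 38090601, 7 peaks) and chromosome 10 reached 1142 (86167903 to 86169706, 1 peak). Chromosome 13 reached 1080 (23830120 to 23832582, 27 peaks) and chromosome 5 reached 839 (115939055 to 115940854, 12 peaks). The lowest maxima were 791 on chromosome 8 (98330919 to 98332291, 4 peaks) and 556 on chromosome 3 (19210746 to 19212171, 2 peaks).

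Within the class, surroundings did not follow score in a simple way. The mean number of peaks 10 to 500 kb away was 9.05 for scores of 300 to below 400 (n = 157), 10.9 for 400 to below 600 (n = 74), 12.4 for 600 to below 1000 (n = 31) and 9.36 for 1000 or more (n = 33). The intervals overlapped, from 7.94 to 10.2 in the first band and 8.98 to 15.9 in the third. The share with a neighbour within 10 kb was 32.5, 32.4, 35.5 and 21.2% in the same bands, and the interval of the last, 8.98 to 38.9%, includes the others. Lone peaks, with 0 in the window, were 4 of 157, 1 of 74, 3 of 31 and 4 of 33.

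By width, the share with a near neighbour varied more than the count in the wider region. A neighbour within 10 kb was found for 28.8% of peaks of 1000 to below 1500 bp (n = 118), 27.8% of 1500 to below 2000 bp (n = 90), 35.0% of 2000 to below 2500 bp (n = 60) and 48.1% of 2500 bp or more (n = 27). The interval of the widest band, 28.7 to 68.1%, still overlapped that of the narrowest, 20.8 to 37.9%. The mean numbers of peaks 10 to 500 kb away were 9.66, 9.53, 10.8 and 10.2. In the widest band 4 of 27 peaks had 0 other peaks in the window, and in the narrowest 4 of 118 did.

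Among the 5 widest, surroundings ranged from lone to crowded. The widest, on chromosome 17 (39979847 to 39985876), was one of the 3 lone peaks at the highest score, with the limit given there. The next, on chromosome 5 (143578680 to 143583783), measured 5104 bp, scored 827 and had a peak 461 bp away and 10 more around it. A peak of 4564 bp on chromosome 11 (62415798 to 62420361), scoring 408, had its nearest neighbour at 6.62 kb. One of 3955 bp on chromosome 13 (81022492 to 81026446), scoring 608, stood alone, 770 kb from the nearest. The fifth, on chromosome 7 (29593762 to 29597342), measured 3581 bp, scored 874 and had its nearest neighbour at 12.4 kb and 17 peaks around it.

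The 5 strong and broad peaks farthest from any other were 2 of the 3 lone ones at the highest score, on chromosomes 1 and 17, and 3 of lower score. On chromosome 3 (127539949 to 127541028, score 377) the nearest peak was 1240 kb away, on chromosome 10 (4540105 to 4541471, score 660) 1186 kb, and on chromosome 9 (4308564 to 4310176, score 376) 1050 kb. The neighbours of these 5 scored from 61.1 to 203.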

How the data were processed

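Per the labels, chromatin of formaldehyde-fixed kidney was immunoprecipitated with an antibody against p53 and sequenced. Per the submitters' processing notes, peaks were called with MACS in mm9. For the aligner, the settings and the use of the input, details were not given in the sources used here. The deposited list gives chromosome, start, end, name and a score for each peak, and the score is the authors' value. Its scale is not stated in the file, and it was used only to select and rank peaks within the list. Depth is unknown.

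Peaks were split at a score of 300 and a width (end minus start) of 1000 bp. Shares have exact Clopper-Pearson intervals, medians order-statistic intervals and means normal intervals, and differences combine the 2 intervals by the MOVER method. No p-value was computed. The limit on a count of 0 is 3 counts of the total. The functions were tested on simulated data. Calculations used Python 3.11.15 with scipy 1.17.1, pandas 2.3.3 and numpy 2.4.6.

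The peaks, classes and measures were chosen with earlier results of these data known. Peaks named were those at the highest score, the 5 widest, the top of each chromosome, those next to each threshold, the 5 with most peaks around (ties included), the 5 farthest and pairs within 10 kb. Runs, lone peaks and the others scoring 1000 or more were chosen after their values were seen. RefSeq genes (GRCm38.p6) served only for counts per chromosome.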

Additional observations from a re-analysis of the deposited data

How the results depend on the processing

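Scores from 400 upward left 138 strong and broad peaks, and the difference in surrounding peaks from the others was then 3.02, next to 2.07 in the report. Over peaks scoring 100 or more alone it was 0.956, with means of 5.21 and 4.25, as fewer peaks enter the count. In the smaller window of 10 to 100 kb it was 0.719, with means of 2.495 and 1.776. In the larger window of 10 kb to 1 Mb it was 3.19, with means of 17.1 and 13.9. Under the other alternatives (scores from 250, widths from 900 or 1200 bp, merging within 1 kb, without the widest 1% of peaks, other distances, midpoints, without X), each difference kept its direction and stayed within the interval of its reported value. The number of strong and broad peaks stayed within 1.5 times, at 243 to 436. The difference on chromosome 11 was 3.24 percentage points at widths from 900 bp, where its interval of -0.13 to 7.31 includes 0. The difference on X was -1.57 at scores from 400 (-1.88 to 1.08) and -1.21 over peaks scoring 100 or more (-1.64 to 0.075), where the intervals also include 0. Merging lowered the shares with a neighbour within 10 kb to 23.8 and 14.5%. Leaving out each chromosome in turn or the widest peak, chosen after seeing the data, moved the differences to 9.11 to 12.2 percentage points, -18.3 to -15.4 kb and 1.69 to 2.22 peaks. No paired analysis was possible because only 1 library was made of each kind. How depth limits the score and width of a peak cannot be judged, as the file gives no read numbers.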
